A study of Mus musculus with 6 samples.

Results

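The genes described here are 10 imprinted genes of the fetal growth network, *H19*, *Dlk1*, *Meg3*, *Rian*, *Peg3*, *Mest*, *Plagl1*, *Grb10*, *Ndn* and *Impact*, found by symbol among the 20856 genes with values. They were read in RNA-seq libraries of 6 mouse cell lines, each grown out of a liver tumor on the C57BL/6 background. The tumors had been started in adult hepatocytes by hydrodynamic injection of a *Myc* transposon with the plasmid px330, which carries Cas9 and a guide RNA. That guide targeted *Trp53* in 3 lines (labelled Myc;sgp53/Cas9, sg*Trp53* here) and *Kmt2c*, also called *Mll3*, in 3 lines (labelled Myc;sgMll3/Cas9, sg*Kmt2c* here). All 6 lines thus carry the *Myc* transposon and were otherwise untreated, and neither genotype has both *Trp53* and *Kmt2c* intact. Each line is a culture from a single tumor, passaged until no fibroblasts were seen, and the labels name sg*Kmt2c* replicates 2 and 3 as 2A and 2T1. Per the study's methods the injected animals were young adult females.

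Imprinted genes are transcribed mainly from the copy inherited from one parent, under the control of DNA methylation that is laid down in the germ line and copied at each cell division. Many of them act on fetal growth, are highly expressed together in embryonic liver and are turned down after birth, and several are known to return in liver tumors. *H19*, *Meg3*, *Rian* and, in most tissues, *Grb10* are expressed from the maternal copy, while *Dlk1*, *Peg3*, *Mest*, *Plagl1*, *Ndn* and *Impact* are expressed from the paternal copy. The libraries come from an inbred background and the deposited values do not tell the parental copies apart, so every level below is the sum of both. Because the samples are bulk cultures, fewer cells expressing a gene and less RNA in each cell cannot be told apart.

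The promoter windows of 4 members are printed because the results turn on them. *Grb10* and *Plagl1* were each transcribed in 5 lines and had at most 5 reads in the remaining one, and *Dlk1* and *Meg3* are the oppositely imprinted genes of a single domain. Each window runs from 250 bases before to 50 bases after an annotated start, on the strand of the gene, from RefSeq's GRCm38.p6 annotation, and capitals mark every CG, the dinucleotide that carries DNA methylation. *Grb10* is at chr11:12037371-12037670 (minus strand), *Plagl1* at chr10:13090582-13090881, *Dlk1* at chr12:109452573-109452872 and *Meg3* at chr12:109540746-109541045 (plus strand).
Grb10: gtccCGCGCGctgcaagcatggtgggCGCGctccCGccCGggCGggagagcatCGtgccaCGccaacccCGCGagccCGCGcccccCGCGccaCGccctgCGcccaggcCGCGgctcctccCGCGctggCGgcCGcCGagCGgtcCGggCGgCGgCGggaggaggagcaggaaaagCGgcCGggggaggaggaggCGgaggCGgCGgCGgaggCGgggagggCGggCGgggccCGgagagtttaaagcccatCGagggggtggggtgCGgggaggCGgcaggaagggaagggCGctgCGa
Plagl1: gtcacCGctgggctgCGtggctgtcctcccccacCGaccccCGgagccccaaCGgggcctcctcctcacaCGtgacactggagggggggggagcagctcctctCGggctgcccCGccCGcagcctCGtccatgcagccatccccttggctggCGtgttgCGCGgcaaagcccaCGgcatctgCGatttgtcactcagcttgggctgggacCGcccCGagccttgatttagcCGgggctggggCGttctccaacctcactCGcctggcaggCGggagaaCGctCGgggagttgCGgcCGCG
Dlk1: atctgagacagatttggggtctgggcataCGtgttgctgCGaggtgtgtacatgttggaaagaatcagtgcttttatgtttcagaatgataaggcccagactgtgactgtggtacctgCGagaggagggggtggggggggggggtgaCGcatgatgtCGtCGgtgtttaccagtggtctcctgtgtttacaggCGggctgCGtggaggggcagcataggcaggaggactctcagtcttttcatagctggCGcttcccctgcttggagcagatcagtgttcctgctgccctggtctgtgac
Meg3: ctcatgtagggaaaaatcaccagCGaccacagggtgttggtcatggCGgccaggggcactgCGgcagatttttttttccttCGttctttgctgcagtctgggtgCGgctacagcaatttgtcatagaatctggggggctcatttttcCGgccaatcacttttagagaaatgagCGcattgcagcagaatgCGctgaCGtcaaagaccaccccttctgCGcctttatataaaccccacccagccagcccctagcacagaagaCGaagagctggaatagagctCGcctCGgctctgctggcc

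The *Grb10* window held 45 CG and lay at percentile 98.1 of the 32851 windows of this length in the table, whose median was 7. A second annotated start of *Grb10* held 9. The *Plagl1* window held 26 CG (percentile 83.1), the *Meg3* window 13, the *Dlk1* window 9 and the *Rian* window 0. *Peg3*, *Ndn* and *Mest* lay between these, with 13, 11 and up to 17 CG. Windows matched for 8 members, and those of *H19* and *Impact* are not shown. A pair of letter strings was searched on both strands. CACGTG, the canonical E-box to which MYC binds, stood once in the *Plagl1* window and in no other member window, against 7.2% of all windows. TATAAA was present in the *Meg3* window, on both strands at overlapping bases, against 13.6% of all windows with it on either strand. Such matches describe the letters only.

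Of the members, 4 also host miRNAs, with 13 mature sequences that have 13 different seeds. Those of *H19* and *Mest* are shown, as the hosts that lie outside the *Dlk1* domain. Capitals mark the seed, bases 2 to 8, and the sequences are RefSeq's on GRCm38.p6, from *H19* on the minus strand at chr7:142577112-142577133 (miR-675-5p) and chr7:142577078-142577099 (miR-675-3p), and from *Mest* on the plus strand at chr6:30741314-30741336 (miR-335-5p) and chr6:30741354-30741375 (miR-335-3p). The miRNAs themselves were not measured in these libraries.
miR-675-5p: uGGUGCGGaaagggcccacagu
miR-675-3p: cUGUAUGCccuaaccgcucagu
miR-335-5p: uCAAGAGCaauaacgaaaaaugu
miR-335-3p: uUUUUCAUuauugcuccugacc

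The deposited values are RPKM, read numbers divided by the length of a listed transcript and by the depth of the library, and the whole reads behind each value could be worked out. Depth was 5312182 to 6878625 reads on genes in sg*Trp53* libraries and 3680068 to 4704539 in sg*Kmt2c* libraries, so every sg*Kmt2c* library was the shallower. *Trp53* lay at 17.2 to 19.4 RPKM in sg*Trp53* cells and 92.2 to 124 RPKM in sg*Kmt2c* cells, as labelled in each library, while *Kmt2c* RNA overlapped between the genotypes. A single line stood apart from the rest. In sg*Kmt2c* replicate 1 the 9 hepatocyte markers summed to 5615 RPKM, mostly from *Apob* and *Hnf4a*, against 2.27 to 334 RPKM in the other lines, with *Alb* at 4.36 RPKM and *Tat* at 0. Its 5 epithelial markers summed to 5811 RPKM against 62.6 to 990.4 RPKM elsewhere, and 7 of the 10 fibroblast and mesenchymal markers had no read there, against 1 or 2 in each other line. *Vim* stayed high in all 6 lines (2116 to 4806 RPKM). The 5 endothelial markers summed to 0.0596 to 0.284 RPKM and the 6 immune markers to 2.79 to 17.8 RPKM, with *Cd3e* and *Cd79a* at 0 in all 6 lines. What part these differences have in the results below was not tested, and results that rest on sg*Kmt2c* replicate 1 are given with and without it.

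*H19*, a maternally expressed non-coding RNA that is abundant in fetal liver (ENSMUSG00000000031, chromosome 7, 142575529 to 142578143), was read in all 6 lines at very different levels. It lay at 7.53, 18.2 and 4.32 RPKM in sg*Trp53* replicates 1, 2 and 3 (105, 222 and 68 reads). In sg*Kmt2c* replicates 1, 2 and 3 it lay at 0.186, 0.712 and 46.9 RPKM (2, 6 and 458 reads). The sg*Kmt2c* lines thus held both the lowest and the highest level, with all 3 sg*Trp53* lines between them. The 2 reads of sg*Kmt2c* replicate 1 carry an exact 95% Poisson interval of 0.242 to 7.22 reads, and those of replicate 3 one of 417 to 501.9 (counting error only), so the gap between them is far beyond counting error. The intervals of sg*Kmt2c* replicates 1 and 2 overlap, and these lines cannot be ranked. The fitted difference between genotypes was -1.06 on the log2 scale (limma, standard error 1.40, adjusted p = 0.816). Without sg*Kmt2c* replicate 3 it was -2.75 (limma, adjusted p = 0.255), and without sg*Kmt2c* replicate 1 it was -0.08.

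*Meg3*, the maternally expressed non-coding RNA next to *Dlk1* (ENSMUSG00000021268, chromosome 12, 109541001 to 109571726), had nearly all of its reads in sg*Trp53* cells. They numbered 143, 5 and 29 there (15.7, 0.627 and 2.81 RPKM) and 0, 1 and 0 reads in sg*Kmt2c* cells. Every sg*Kmt2c* line was below every sg*Trp53* line in measured level. The exact 95% Poisson intervals of sg*Trp53* replicate 2 (1.62 to 11.7 reads) and sg*Kmt2c* replicate 2 (0.0253 to 5.57 reads) overlap, so these lines cannot be ranked. *Meg3* fell under the filter on low values and was not tested across genes (exact permutation test on log2(RPKM + 1), two-sided p = 0.1, which is the lowest possible with 3 lines in each genotype).

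*Rian*, a further maternally expressed non-coding RNA of the same domain that hosts small nucleolar RNAs (ENSMUSG00000097451, chromosome 12, 109603940 to 109661716), had a like profile. Its values were 91.2, 1.14 and 14.6 RPKM in sg*Trp53* cells (183, 2 and 33 reads) and 0, 2.47 and 1.42 RPKM in sg*Kmt2c* cells (0, 3 and 2 reads). Both RNAs were highest in sg*Trp53* replicate 1, next in replicate 3, and at 5 or fewer reads in the other 4 lines. The listed length of *Rian* is 329 bases, so that a few reads already give an RPKM above 1, and its passing of the filter rests on this. The gene shares 2011 bases with *Gm26945*, which had at most 1 read in any line. The fitted difference was -2.84 (limma, adjusted p = 0.601), and without sg*Trp53* replicate 1 it was -1.505 (limma, adjusted p = 0.801).

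*Dlk1*, the paternally expressed gene of that domain (ENSMUSG00000040856, chromosome 12, 109452823 to 109463336), encodes a membrane protein of the Notch ligand type that marks fetal hepatoblasts. It lay at 487, 17.4 and 228 RPKM in sg*Trp53* cells and at 0, 73.9 and 1077 RPKM in sg*Kmt2c* cells (1985, 62 and 1051 against 0, 182 and 3076 reads). No read fell on it in sg*Kmt2c* replicate 1, which makes it at least 1128-fold lower there than in replicate 3, with 3 reads taken as the floor of the library. The range over the lines, 10.1 on the log2(RPKM + 1) scale, lay at percentile 99.98 of all genes tested. The genotypes overlapped fully, and the fitted difference of -1.56 (limma, 95% interval -7.62 to 4.50, adjusted p = 0.853) turned to 1.16 without sg*Kmt2c* replicate 1 (limma, adjusted p = 0.861).

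Among the genes tested, the 5 whose centred log2(RPKM + 1) profile lay closest to that of *Dlk1* were *Nes*, *Tfcp2l1*, *Ccnd2*, *Obsl1* and *Elovl4*. Their root mean square differences from it over the 6 lines were 1.69, 1.74, 1.81, 1.84 and 1.86. All 5 had their lowest level in sg*Kmt2c* replicate 1, where *Nes* had 9 reads and *Obsl1* and *Elovl4* had none. This follows from their choice by likeness to *Dlk1*, and 35.4% of all genes tested were lowest in that line. *Elovl4*, like *Dlk1*, was highest in sg*Kmt2c* replicate 3 (29.5 RPKM). These likenesses describe 6 libraries.

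*Grb10*, which encodes an adaptor that binds the insulin and IGF1 receptors and restrains their signal (ENSMUSG00000020176, chromosome 11, 11930508 to 12038683), was uniformly high in 5 lines. It lay at 567, 374 and 587 RPKM in sg*Trp53* cells and at 463 and 557 RPKM in sg*Kmt2c* replicates 1 and 3 (1870 to 3800 reads). In sg*Kmt2c* replicate 2 it had 5 reads, or 1.44 RPKM, with an exact 95% Poisson interval of 1.62 to 11.7 reads. The next lowest line was 259.1-fold above it. The line was not short of all members, since *Plagl1* lay at 27.8 RPKM and *Impact* at 40.2 RPKM in it. The fitted difference between genotypes of -2.54 (limma, 95% interval -7.33 to 2.25, adjusted p = 0.724) rests on that single library and was 0.03 without it (limma, standard error 0.275, adjusted p = 0.977).

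*Plagl1*, a zinc finger transcription factor known to act on other genes of the imprinted network (ENSMUSG00000019817, chromosome 10, 13060504 to 13131694), showed the same pattern in another line. It lay at 48.1, 22.8 and 12.4 RPKM in sg*Trp53* cells and 27.8 and 20.6 RPKM in sg*Kmt2c* replicates 2 and 3 (106 to 363 reads). No read was found in sg*Kmt2c* replicate 1, at least 93.3-fold below the highest line. The fitted difference of -1.55 (limma, adjusted p = 0.735) was -0.0041 without that line (limma, standard error 0.534, adjusted p = 0.999).

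*Peg3*, a paternally expressed zinc finger gene known to influence growth and maternal behavior (ENSMUSG00000002265, chromosome 7, 6703892 to 6730421), split the lines into those with and those nearly without it. It lay at 10.9 and 8.48 RPKM in sg*Trp53* replicates 1 and 3 and at 11.4 RPKM in sg*Kmt2c* replicate 3 (578, 508 and 423 reads). The other 3 lines held 0.303 RPKM (sg*Trp53* replicate 2, 14 reads), 0.464 RPKM (sg*Kmt2c* replicate 1, 19 reads) and 0. High and low lines occurred in both genotypes, and the fitted difference was -1.01 (limma, adjusted p = 0.802). It was -2.12 without sg*Kmt2c* replicate 3 (limma, adjusted p = 0.451).

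*Mest*, which encodes a predicted hydrolase of the endoplasmic reticulum (ENSMUSG00000051855, chromosome 6, 30723547 to 30748455), was the tested member whose genotypes did not overlap. It lay at 22.1, 9.92 and 28.1 RPKM in sg*Trp53* cells (46, 18 and 66 reads) and at 0, 2.39 and 7.55 RPKM in sg*Kmt2c* cells (0, 3 and 11 reads). Every sg*Kmt2c* line was below every sg*Trp53* line in measured level. The exact 95% Poisson intervals of sg*Kmt2c* replicate 3 (5.49 to 19.7 reads) and sg*Trp53* replicate 2 (10.67 to 28.45 reads) overlap, so these lines cannot be ranked. The listed length of *Mest* is 341 bases, so that a few reads already give an RPKM above 1. The fitted difference was -2.66 (limma, 95% interval -4.57 to -0.76, p = 0.0133), which did not pass the threshold over all genes (adjusted p = 0.450), and the exact permutation test gave p = 0.1. Without sg*Kmt2c* replicate 1 it was -1.85 (limma, adjusted p = 0.432). The gene shares 902 bases with *Copg2*, which was read in every line, and whether the counting used strand is not stated.

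*Impact*, whose product inhibits the amino acid sensor kinase GCN2 through its partner GCN1 (ENSMUSG00000024423, chromosome 18), was the steadiest of the members with reads. It lay at 31.2, 33.2 and 28.1 RPKM in sg*Trp53* cells and at 8.53, 40.2 and 23.5 RPKM in sg*Kmt2c* cells (138 to 665 reads). Only sg*Kmt2c* replicate 1 lay outside a 2-fold span around the other lines, and without it the fitted difference moved from -0.58 (limma, adjusted p = 0.747) to -0.00019. *Ndn*, which encodes necdin, a growth suppressor best known in neurons (ENSMUSG00000033585, chromosome 7, 62348277 to 62349928), had 1, 2 and 4 reads in sg*Trp53* cells and 0, 1 and 2 in sg*Kmt2c* cells. At this depth it could not be told from background in any line, and it was not tested.

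**Figure D1:**
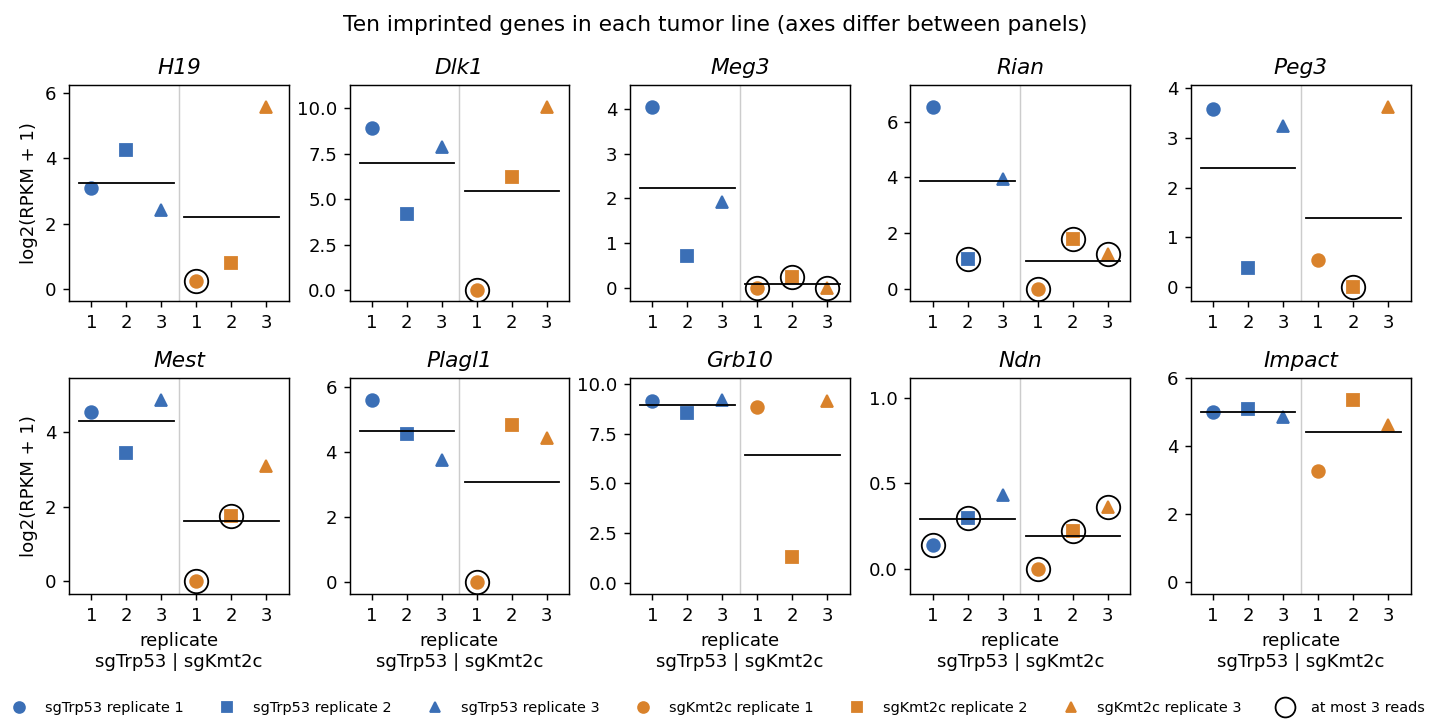
The 10 members in each line, on the log2(RPKM + 1) scale (vertical axes differ), with the 3 sg*Trp53* lines in blue, the 3 sg*Kmt2c* lines in orange and a bar at the mean of each genotype. Rings mark lines with at most 3 reads; *Grb10* is near 0 in sg*Kmt2c* replicate 2 alone, *Dlk1* and *Plagl1* are at 0 in sg*Kmt2c* replicate 1, and *H19* is both lowest and highest among sg*Kmt2c* lines.

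Between the genotypes, no member passed an adjusted p-value under 0.05 (limma, 0 of the 8 tested, adjusted p = 0.450 to 0.853), where 0.129% of all 11617 genes tested did. At an unadjusted p-value under 0.05 it was 1 of the 8, *Mest*, against 8.58% of all genes. The measured levels of the genotypes did not overlap in 1 of the 8, again *Mest*, against 16.2% of all genes. Neither share says that the members differ from other genes, and the wide intervals leave room for large differences. The fitted value was below 0, lower in sg*Kmt2c* cells, for all 8 tested members, against 58.0% of all genes. Their median was -1.56 and that of all genes -0.09. Without sg*Kmt2c* replicate 1, 7 of the 8 were below 0 with a median of -0.33, against -0.04 for all genes. The share of all genes below 0 was not counted for that set of lines. Of the members below 0 there, *Impact* (-0.00019), *Plagl1* (-0.0041) and *H19* (-0.08) had next to no difference left. Without sg*Kmt2c* replicate 3 the median of the members was -2.855, and without sg*Trp53* replicate 2 it was -2.38, so its size depends on single lines.

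**Figure D2:**
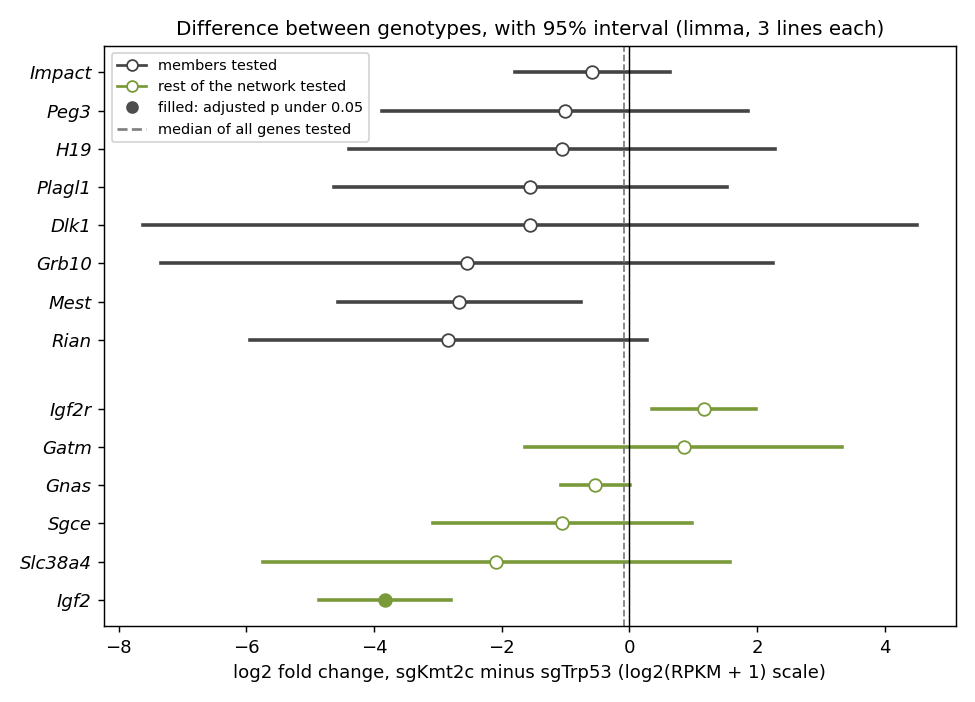
Fitted log2 fold change (sg*Kmt2c* minus sg*Trp53*, on the log2(RPKM + 1) scale) with its 95% interval from limma, for the 8 members tested and the 6 tested genes of the rest of the imprinted network. All 8 members lie left of 0 with unfilled circles, and the interval of *Mest* alone among them excludes 0; the filled circle is *Igf2*.

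Most members had a wide range between lines. That *H19* varies strongly between lines was known when the members were chosen, so its own range is not independent of that choice. On the log2(RPKM + 1) scale the highest and lowest lines were at least 3 apart in 7 of the 8 members tested, against 8.84% of all genes tested. Among all 10 members, with no filter on low values, it was 8, *Meg3* being the eighth, against 5.78% of all 20856 genes. The range ran from 2.11 for *Impact* to 10.1 for *Dlk1* with a median of 5.48, while the median of all genes tested was 1.06. *Peg3*, at 3.63, was the member just inside the limit of 3, and *Impact* the tested member outside it. Wide spread was also seen within a genotype. For *Grb10* the SD between sg*Kmt2c* lines was 4.45 on that scale, against 0.361 between sg*Trp53* lines. For *Rian* it was the sg*Trp53* lines that spread more, with an SD of 2.72 against 0.924. Without sg*Kmt2c* replicate 1 the limit was reached by 6 of the 8, *Plagl1* dropping out, against 4.41% of all genes tested. Markers of cell state also spread widely, and the limit was reached by 5 of the 5 epithelial, 5 of the 6 fibroblast and mesenchymal and 3 of the 4 hepatocyte markers tested.

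**Figure D3:**
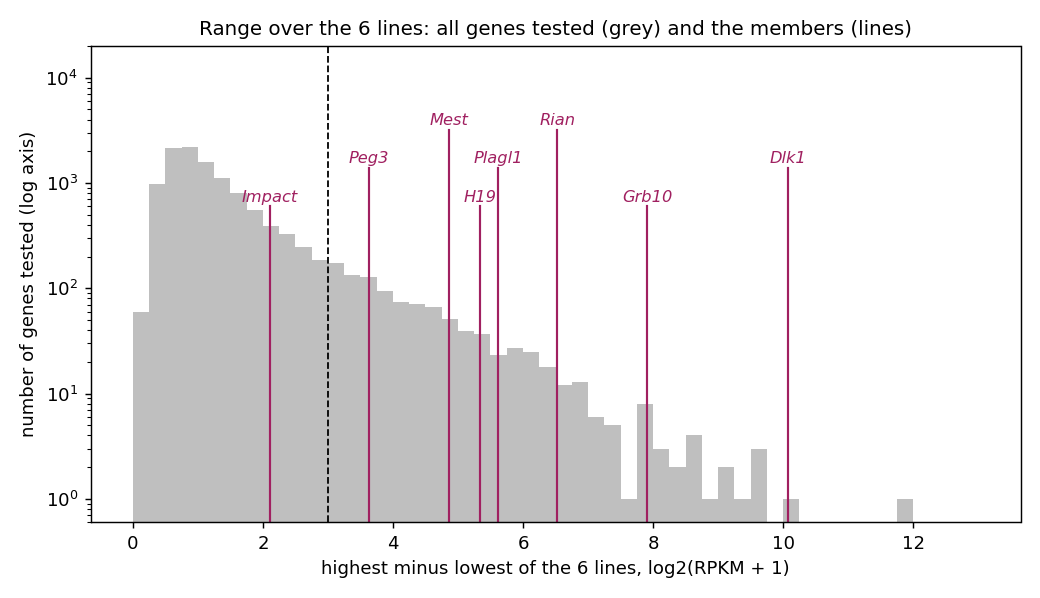
Highest minus lowest of the 6 lines on the log2(RPKM + 1) scale, as the number of all 11617 genes tested in each bin (grey, log axis), with a line for each of the 8 members tested and the limit of 3 dashed. *Dlk1*, *Grb10* and *Rian* lie far in the right tail, and only *Impact* lies left of the limit.

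The lines differed in which members were nearly unread. A member was counted as nearly unread in a line where it had at most 3 reads while reaching at least 5 RPM (reads scaled to library size without regard to length) in its highest line, a count chosen after the values were seen, for which 9 members (all but *Ndn*) could qualify. In sg*Kmt2c* replicate 1 it held for 6 of the 9 (*Dlk1*, *H19*, *Meg3*, *Mest*, *Plagl1* and *Rian*), against 7.33% of all genes that reached the same level. In sg*Kmt2c* replicate 2 it held for 4 (*Meg3*, *Mest*, *Peg3* and *Rian*), against 6.06% of all genes. In sg*Kmt2c* replicate 3 it held for 2 (*Meg3* and *Rian*), against 3.47%. Of the sg*Trp53* lines, replicate 2 lacked *Rian* (1 of 9, against 3.82% of all genes), and replicates 1 and 3 lacked none, against 2.83% and 1.8%. The shallower sg*Kmt2c* libraries make a count of at most 3 easier to reach, which the shares of all genes include. *Meg3*, *Mest* and *Rian* reached 5 RPM in sg*Trp53* cells alone and so entered these counts through the genotype where they were high. Among the 6 members that reached it in a line of each genotype, 3 were nearly unread in sg*Kmt2c* replicate 1 (*Dlk1*, *H19* and *Plagl1*), against 3.74% of all such genes, 1 in replicate 2 (*Peg3*), against 1.68%, and 0 in replicate 3, against 0.39%. In sg*Trp53* replicates 1, 2 and 3 it was 0 of the 6, against 0.476%, 0.809% and 0.0762% of all such genes.

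sg*Kmt2c* replicate 1 was also the line with high hepatocyte and epithelial and few mesenchymal markers. It still held *Grb10* at 463 RPKM, so the members were not all low there, while *Impact*, at 8.53 RPKM, was at its lowest. Replicate 3, which carried the highest *H19*, *Dlk1* and *Peg3*, had the next highest hepatocyte marker sum (334 RPKM), mostly from *Hnf4a* and *Apob*. Among the sg*Trp53* lines, replicate 2 had the lowest *Dlk1*, *Meg3*, *Rian*, *Peg3*, *Mest* and *Grb10* but the highest *H19*. It had the lowest epithelial sum of all lines (62.6 RPKM). Its fibroblast and mesenchymal sum (3767 RPKM) lay between those of sg*Trp53* replicates 1 and 3 (2766 and 4307 RPKM). The part of these marker differences in the members' levels was not tested.

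The rest of the imprinted network was read from a list of 8 genes, of which 6 could be tested. *Igf2*, the fetal growth factor that shares its domain with *H19*, had 316, 547 and 306 reads in sg*Trp53* cells and 0, 0 and 15 in sg*Kmt2c* cells. Its fitted level was lower in sg*Kmt2c* cells (log2 fold change -3.83, limma, adjusted p = 0.0494). *Igf2* reached 1 RPKM in sg*Trp53* cells alone (at most 0.946 RPKM in sg*Kmt2c* cells). It thus passed the filter through the genotype where it was high, which limits what this call can show. It was the 1 gene of the list past the threshold, and its adjusted p was above 0.05 in 14 of the 16 other settings tried, and ranged from 0.0335 to 0.282 over them (limma). *Igf2r*, the receptor that removes IGF2 from the cell surface, lay at 32.3, 19.1 and 23.5 RPKM in sg*Trp53* cells and at 88.4, 48.5 and 41.5 RPKM in sg*Kmt2c* cells. The lines did not overlap, with a log2 fold change of 1.17 (limma, adjusted p = 0.439). *Slc38a4*, an amino acid transporter of liver and placenta, had 578 to 1581 reads in 5 lines and none in sg*Kmt2c* replicate 1, at least 511.7-fold below the highest line. *Sgce* and *Gatm* also had no read in that line, and *Dcn* had 0, 0 and 2 reads in sg*Kmt2c* cells against 85, 9 and 106. *Cdkn1c*, the cell cycle inhibitor of the network, had at most 14 reads in any line. Of the 6 tested, 2 were higher and 4 lower in sg*Kmt2c* cells with a median of -0.79, where 58.0% of all genes tested were lower. A range of at least 3 was found in 4 of the 6, against 8.84% of all genes tested. Over all lists of network, neighbouring, imprinted and partner genes, 56 could be tested, and *Igf2* was the 1 past the threshold.

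Among 30 other imprinted genes 14 could be tested, and none passed an adjusted p-value under 0.05 (limma, 1 at an unadjusted p under 0.05, *Casd1*). Their median was 0.04, 8 were higher and 6 lower, where 58.0% of all genes tested were lower. A range of at least 3 was found in 2 of the 14 (*Peg10* and *Osbpl5*), against 8.84% of all genes tested. *Peg10*, a retrotransposon-derived gene with a placental role, lay at 23.2, 47.2 and 24.6 RPKM in sg*Trp53* cells. In the sg*Kmt2c* lines it lay at 1.29, 249.6 and 41.0 RPKM, so it was highest in sg*Kmt2c* replicate 2, where *Grb10* had 5 reads and *Peg3* none. *Phlda2* and *Slc22a18*, neighbours in another imprinted cluster, went the other way and were highest in sg*Kmt2c* replicate 1 (10.9 and 9.04 RPKM, from 39 and 65 reads). Of 24 genes from both lists that reached 5 RPM, 8 were at or under 3 reads in sg*Kmt2c* replicate 1, against 7.33% of all genes. It was 4 each in replicates 2 and 3, against 6.06% and 3.47%. In sg*Trp53* cells it was 0, 2 and 2, against 2.83%, 3.82% and 1.8%. *Igf2*, *Dcn* and *Sfmbt2* reached 5 RPM in sg*Trp53* cells alone, and *Phlda2*, *Slc22a18* and *Nnat* in sg*Kmt2c* cells alone. Of the 18 that reached it in both genotypes, 5 were so in sg*Kmt2c* replicate 1, against 3.74% of all such genes. It was 0 in every other line, against 0.0762% to 1.68%.

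**Figure D4:**
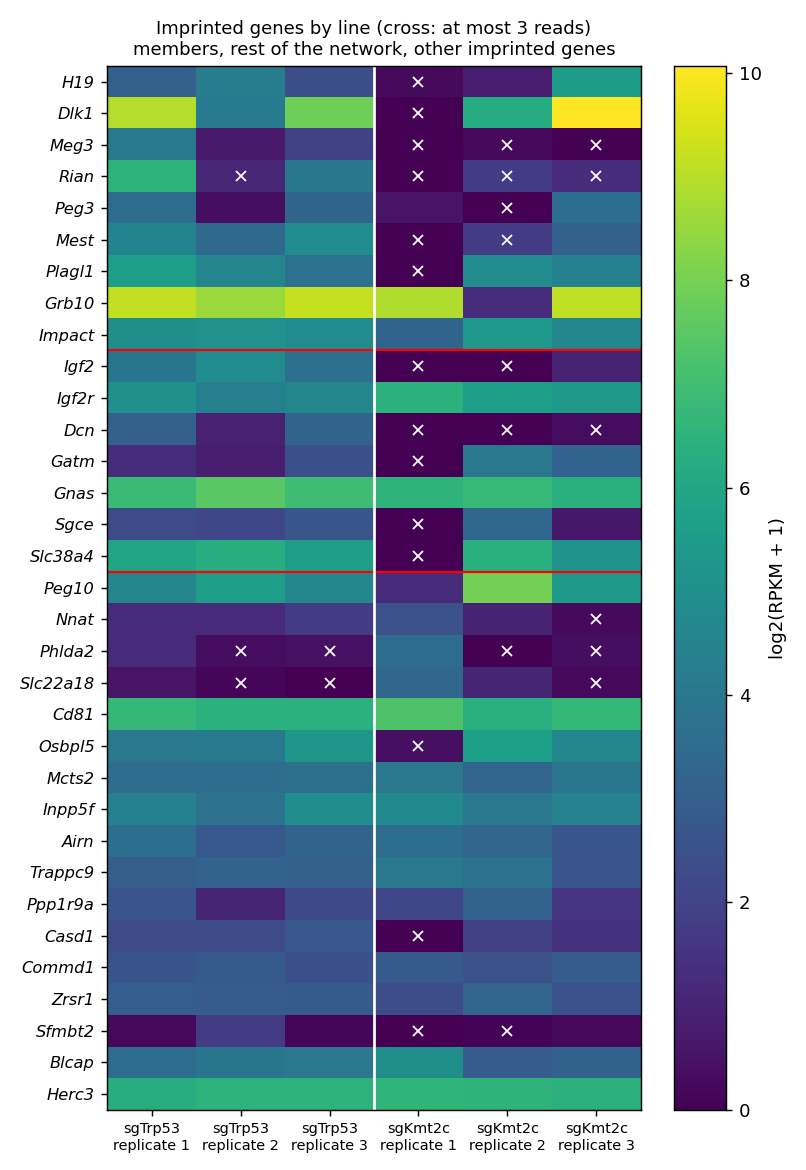
Levels, as log2(RPKM + 1), of the 33 imprinted genes that reached 5 RPM in at least 1 line, with the members at the top, the rest of the network in the middle and other imprinted genes below. Crosses mark at most 3 reads; they gather in sg*Kmt2c* replicate 1 for members and network genes, while *Grb10*, *Igf2r*, *Gnas* and *Cd81* stay bright in that line.

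Neighbouring genes were read to see whether whole regions had lost their reads. In the *H19* domain, *Mrpl23* was present in all lines (14.2 to 24.0 RPKM), *Ins2* and *Nctc1* in none. *Lsp1*, a gene of white blood cells in the same list, had 4 reads (0.491 RPKM) in sg*Kmt2c* replicate 1, where *H19* had 2, and 28 to 205 reads in the other lines. *H19* and *Igf2* are known to use the same enhancers and to be expressed from opposite parental copies. Both were present in the 3 sg*Trp53* lines, both were at or near 0 in sg*Kmt2c* replicates 1 and 2, and in replicate 3 *H19* was at its highest (458 reads) beside 15 reads of *Igf2*. In the *Dlk1* domain, *Wars* and *Wdr25* just outside it were read in each line (at least 272 and 17 reads). *Dio3*, a deiodinase at its far end, was highest in sg*Trp53* replicate 3 (139 reads), and *Rtl1* had at most 1 read. *Mirg*, a further non-coding RNA of the domain, was highest in sg*Kmt2c* replicate 2 (16 reads), where *Meg3* had 1 and *Rian* 3, and had at most 3 reads elsewhere. sg*Kmt2c* replicate 3 combined the highest *Dlk1* with 0 reads of *Meg3* and 2 of *Rian*, while sg*Trp53* replicate 1 had all 3 genes.

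Next to *Grb10*, *Fignl1* lay at 20.5 RPKM in sg*Kmt2c* replicate 2 (224 reads), within the range of the other lines. *Cobl* was low there (2.75 RPKM, 26 reads) and in sg*Trp53* replicate 2 (2.34 RPKM, 32 reads), against 11.3 to 28.1 RPKM in the remaining lines. *Ddc* was read mainly in sg*Kmt2c* replicate 1 (243 reads). Near *Plagl1*, *Ltv1* and *Sf3b5* were read in every line, while *Phactr2* had no read in sg*Kmt2c* replicate 1, the line without *Plagl1*, and 32 to 114 elsewhere. Beside *Mest*, *Copg2* and *Cep41* were read in all lines at 36.6 to 64.7 and 1.90 to 3.88 RPKM. *Usp29* and *Zim1*, next to *Peg3*, had at most 3 reads in any line, and around *Ndn* only *Ube3a* and *Atp10a* could be tested. Around *Impact*, *Npc1* and *Osbpl1a* were read in every line. Of the 16 tested neighbours other than *Igf2*, 0 passed an adjusted p-value under 0.05 and 0 an unadjusted one (limma).

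**Figure D5:**
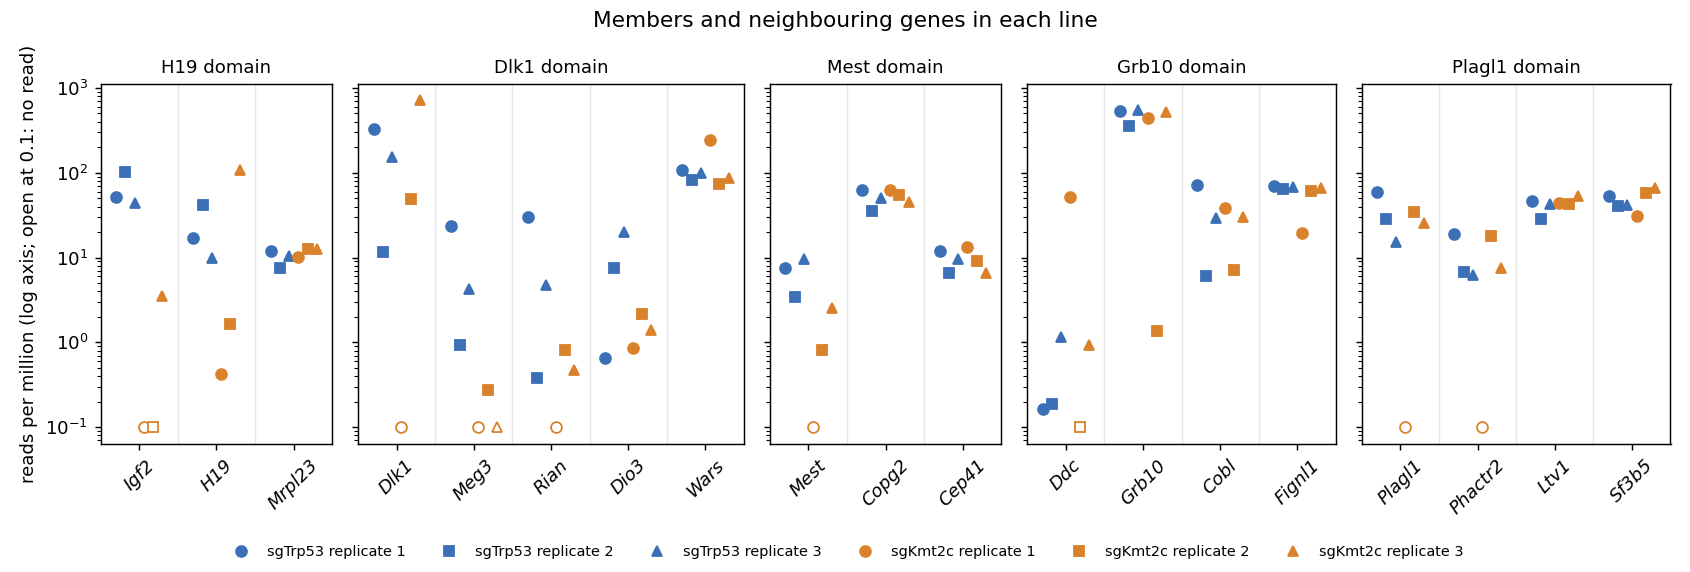
RPM, reads scaled to library size (log axis, open symbols at 0.1 for no read) of members and genes near them in each line, sg*Trp53* in blue and sg*Kmt2c* in orange. *Mrpl23*, *Wars*, *Copg2*, *Fignl1*, *Ltv1* and *Sf3b5* were read in all lines, beside members such as *Grb10* with 5 reads in sg*Kmt2c* replicate 2.

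The factors that keep imprints through cell division were read as a list of 9, of which 8 could be tested and none passed an adjusted p-value under 0.05 (limma, 1 at an unadjusted p under 0.05, *Setdb1*). *Dnmt1*, the maintenance DNA methyltransferase, lay at 105, 74.99 and 87.7 RPKM in sg*Trp53* cells and 18.9, 97.8 and 100.4 RPKM in sg*Kmt2c* cells. *Uhrf1*, which guides DNMT1 to newly copied DNA, lay at 55.5, 40.2 and 65.8 against 6.75, 55.0 and 73.8 RPKM. Both were lowest in sg*Kmt2c* replicate 1, as were 35.4% of all genes tested, and both lay within the range of the rest in sg*Kmt2c* replicate 2. The part of these factors in the members' levels was not tested. *Zfp57*, a zinc finger protein that binds methylated imprinting control regions, was highest in sg*Kmt2c* replicate 1 (18.9 RPKM) and lay between 1.09 and 5.61 RPKM in the other lines. *Zfp445*, *Trim28* and *Ctcf* varied less than 2-fold.

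*Zhx2* and *Zbtb20* encode repressors that are known to keep *Afp* low in liver after birth, *Zhx2* also *H19*. None of the 3 tested genes of that list passed an adjusted p-value under 0.05, and none an unadjusted one (limma). *Zhx2* lay at 11.2, 7.56 and 6.30 RPKM in sg*Trp53* cells and at 7.52, 3.47 and 4.44 RPKM in sg*Kmt2c* cells, with the lowest level in sg*Kmt2c* replicate 2, where *H19* had 6 reads. *Afp* was highest in sg*Kmt2c* replicate 1 (190 reads), where *H19* had 2, and had 5 reads in replicate 3, where *H19* was highest. Genes whose products work with those of the members were read as a list of 10. Of the 9 tested, none passed an adjusted p-value under 0.05 (limma), and 1 did at an unadjusted p under 0.05. That gene was *Notch1*, a receptor on which DLK1 is known to act, at 6.98, 7.27 and 5.002 RPKM in sg*Trp53* cells and 10.4, 15.9 and 8.26 RPKM in sg*Kmt2c* cells (log2 fold change 0.72, limma, adjusted p = 0.580). *Insr* and *Igf1r*, the receptors that GRB10 binds, lay at 10.8 and 25.7 RPKM in sg*Kmt2c* replicate 2, the line with 5 *Grb10* reads, within the range of the other lines. *Eif2ak4*, which encodes GCN2, lay at 7.41 to 11.3 RPKM in all 6 lines.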

How the data were processed

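Per the labels and the study's methods, RNA of 6 liver tumor lines was sequenced, and reads were trimmed with Trimmomatic, aligned to GRCm38 with STAR and counted per gene with HTSeq (use of strand not stated). The authors deposited RPKM values. Of the 21065 rows 209 carry no values, and 6 columns of other samples were not used. The authors' own comparison table (DESeq2 1.8.2 fold changes, p-values and means) was not used. All libraries ran in the same 2 lanes of 1 flow cell.

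The product of RPKM and listed length was a whole number of steps in 100.0% of nonzero values (within 0.01 reads), and this gave the reads behind each. No pair of replicates was a copied library (chi-square per gene at least 28.5). The limma p-values set the difference between genotypes against the spread between these lines. Genotypes were compared on log2(RPKM + 1), a scale that understates the change of low genes, with limma 3.58.1 under R 4.3.3 (lmFit, eBayes with trend, no covariate). The p-values were adjusted by Benjamini-Hochberg over the 11617 genes that reached 1 RPKM in 3 or more of the 6 libraries. RPKM uses 1 listed length per gene (329 bases for *Rian* to 8694 for *Peg3*), so levels compare lines rather than genes. Poisson intervals and the floor of 3 reads cover counting error only. Scripts were tested on simulated data. The members and gene lists were chosen with earlier results of these data known. Genes named are the members, those of the lists, *Trp53*, *Kmt2c* and the 5 closest in profile to the member with the widest range. List genes with no row in the table (such as *Snrpn*, *Kcnq1ot1* and *Dppa3*) were not analysed here. Alternatives changed the pseudocount (0.1 and 0.5), the filter, the scaling, the moderation and the lines used.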

Additional observations from a re-analysis of the deposited data

How the results depend on the processing

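No member passed an adjusted p under 0.05 in the fit reported or in any of the 16 alternatives (limma, 0 of 8 in each, or 0 of 10 with no filter; adjusted p of a member down to 0.229), and 126 of the 128 member fold changes kept their sign. Those that turned were *Dlk1* without sg*Kmt2c* replicate 1 and *Grb10* without sg*Kmt2c* replicate 2. With a library left out, *Dlk1* ranged from -3.88 to 1.16 and *Grb10* from -3.89 to 0.025. With a library left out, members at an unadjusted p under 0.05 numbered 1 to 2, members whose genotypes do not overlap 1 to 3, and members with a wide range 6 to 7. Among all 11617 genes tested these numbers were 563 to 1477, 2592 to 3763 and 512 to 962. With all lines they were 997, 1877 and 1027, so genes in general overlapped less often in the smaller sets of lines. With no filter on low values, 2 members did not overlap, *Meg3* being the other, against 2525 of all 20856 genes. Among the network lists, the 1 gene past the threshold (*Igf2*) became 0 with a pseudocount of 0.1 or 0.5, no filter, TPM, median-of-ratios factors, the replicate block, limma voom on recovered reads, sg*Kmt2c* replicates 2 and 3 as 1 line, and each library left out (0 to 0). Counting at most 1 read rather than 3 as nearly unread, an alternative chosen after seeing the data, gave 0 members in sg*Trp53* replicate 2, 2 in sg*Kmt2c* replicate 2 and 1 in sg*Kmt2c* replicate 3. Asking for 5 RPM in both genotypes, likewise chosen after seeing the data, gave 0 in sg*Trp53* replicate 2, and 3, 1 and 0 in sg*Kmt2c* replicates 1, 2 and 3, since *Meg3*, *Mest* and *Rian* then leave the count. The cause of these changes was not tested.

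Same-numbered lines share only a number. Their deviations from the genotype means correlated by 0.192, 0.399 and 0.032 across genes, and sg*Trp53* replicate 3 correlated best with sg*Kmt2c* replicate 1 (0.152). With the replicate number as a block, 0 of all genes tested passed an adjusted p under 0.05 (limma, 1085 an unadjusted one), against 15 without it, and 0 members in either. At 3680068 to 6878625 reads, *Ndn* and levels of a few reads cannot be compared between lines.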
